A study of Mus musculus with 12 samples.

Results

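The 10 imprinted genes described here were followed through the RNA-seq and ChIP-seq data of mouse embryonic stem cells (mESCs, line E14TG2a, labelled ES-E14) and NIH3T3 cells (NIH-3T3), a mouse embryonic fibroblast line. They were chosen by symbol as H19, Igf2, Meg3, Dlk1, Peg3, Peg10, Mest, Grb10, Plagl1 and Cdkn1c, which are 10 of the 54446 genes in the RNA-seq tables. The study asked where Ctr9, a core subunit of the Paf1 complex (Paf1C) that travels with elongating RNA polymerase II (RNAPII), sits on genes and enhancers in these lines. RNA was sequenced from 1 library of each line. In ChIP-seq, 1 library each was made for Ctr9-GFP and for H3K27ac, a histone mark of active promoters and enhancers, in both lines. In mESCs, NELFA-GFP (a subunit of the pausing factor NELF) and the Ser5p and Ser2p forms of RNAPII, which mark early and elongating polymerase, were also profiled.

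Both lines were grown in the same serum medium with LIF, and the labels name no treatment. The Ctr9-GFP cells (labelled Ctr9-EGFP) carried GFP knocked in at the end of Ctr9 and were sorted pools rather than single clones. The NELFA-GFP mESCs (Nelfa-EGFP) carried a tagged NELFA, and the Ser5p ChIP-seq was made in those cells. Whether the cells of the H3K27ac, Ser2p and RNA libraries carried a tag is not given in the sources used here. H3K27ac and Ctr9 had libraries in both lines, whereas NELFA, Ser5p and Ser2p had none in NIH3T3 cells. Each group compared here was a single library. Without replicates, no difference below could be tested, and each is one between 2 libraries.

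Imprinted genes are expressed mainly from the chromosome inherited from 1 parent, through DNA methylation set in the egg or sperm at control regions that are often shared by several genes. Many of them act on growth of the embryo and placenta. Paternally expressed Igf2, Dlk1, Peg3, Peg10, Mest and Plagl1 and maternally expressed H19, Meg3 and Cdkn1c are classical examples, and Grb10 is expressed from the maternal copy in most tissues. The libraries do not separate the parental copies, so each value below is the sum over both.

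Sequences that bear on the regulation of these genes or on the peaks described later are shown first. They were read from GRCm38.p6, whose coordinates are those of mm10, and are written 5′ to 3′ on the strand of the gene. Upstream of H19, 3 stretches hold the letters GNGGNGGCA, a part of the core motif of CTCF, in capitals. They lie 3900, 2630 and 2175 bases before the gene start, in the stretch known as the control region of the H19 and Igf2 pair, at chr7:142582025-142582054, chr7:142580755-142580784 and chr7:142580300-142580329 on the minus strand.
H19 match 1: ggagttgccgcGTGGTGGCAgcaaaatcga
H19 match 2: gatgctaccgcGCGGTGGCAgcatactcct
H19 match 3: gacgatgccgcGTGGTGGCAgtacaatact

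CTCF insulates Igf2 from enhancers beyond H19 on the maternal copy. In all, 8 matches to these letters were found on either strand in the gene body of H19 and 5 kb on each side, or 6.34 per 10 kb, the highest density of the 10 genes. Of the 6 upstream of the gene start, the 3 farthest are those shown. Of 32851 RefSeq promoters of 300 bases, 8.96% hold a match, which is a share and not a density per 10 kb. In matches 1 and 3 the letters TGCCGC, the recognition hexamer of ZFP57, directly precede the capitals. ZFP57 keeps methylation at imprinted control regions after fertilisation. CTCF and ZFP57 were not profiled in these data.

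For Peg3, the stretch shown lies in the first intron at chr7:6729300-6729599 on the minus strand and ends just past the strongest H3K27ac summit of the gene in mESCs. Capitals mark the letters CGCCATCTT, which read AAGATGGCG on the other strand and form the core of a binding motif of YY1, a zinc finger factor.
Peg3 first intron: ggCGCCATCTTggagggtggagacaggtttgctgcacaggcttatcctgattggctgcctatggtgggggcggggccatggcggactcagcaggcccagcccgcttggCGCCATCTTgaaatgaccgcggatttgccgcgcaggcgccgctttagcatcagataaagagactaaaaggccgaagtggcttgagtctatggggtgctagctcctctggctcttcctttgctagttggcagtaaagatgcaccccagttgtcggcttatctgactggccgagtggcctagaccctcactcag

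Within Peg3 and 5 kb on each side, AAGATGGCG was found 11 times, always on the strand opposite to the gene, and 10 of these matches lay between 834 and 3122 bases after the gene start. Igf2 and Plagl1 held 1 match each and the other 7 genes none. Of all 300-base promoters, 1.40% hold a match on either strand.

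For Meg3, the first 250 bases of the gene are shown, at chr12:109541001-109541250 on the plus strand. Capitals run from the NELFA summit to the Ser5p summit of mESCs.
Meg3 start: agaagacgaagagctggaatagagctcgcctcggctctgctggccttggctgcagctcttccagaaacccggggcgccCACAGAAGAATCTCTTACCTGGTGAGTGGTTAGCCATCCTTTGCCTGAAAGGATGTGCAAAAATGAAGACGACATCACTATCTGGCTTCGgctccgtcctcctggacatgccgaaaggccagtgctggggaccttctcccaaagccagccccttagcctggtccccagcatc

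For Mest, the 200 bases before the start of transcript Mest-211 are shown, at chr6:30737850-30738049 on the plus strand, with TGCCGC on either strand in capitals. The only Ser5p peak of the gene begins inside this stretch.
Mest upstream: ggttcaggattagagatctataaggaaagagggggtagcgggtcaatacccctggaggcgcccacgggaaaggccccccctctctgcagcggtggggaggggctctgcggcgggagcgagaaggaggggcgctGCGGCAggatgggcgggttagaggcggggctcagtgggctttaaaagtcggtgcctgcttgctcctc

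TGCCGC was found 16 times in Mest and its flanks, or 4.58 per 10 kb, against 6 times or 4.76 per 10 kb at H19 and 2 times or 0.491 per 10 kb at Meg3. The other genes lay between, from 1.46 per 10 kb at Dlk1 to 2.74 per 10 kb at Peg3. Of all 300-base promoters, 11.6% hold it, which is a share and not a density per 10 kb. For Dlk1 and Grb10, the 150 bases before the start of the most abundant transcript in NIH3T3 cells are shown, at chr12:109453305-109453454 on the plus strand and chr11:12037402-12037551 on the minus strand, with CpG dinucleotides, the sites of DNA methylation, in capitals.
Dlk1 upstream: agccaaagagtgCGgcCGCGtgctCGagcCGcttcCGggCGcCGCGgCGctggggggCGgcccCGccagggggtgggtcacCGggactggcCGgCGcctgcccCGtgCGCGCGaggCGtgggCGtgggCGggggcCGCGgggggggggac
Grb10 upstream: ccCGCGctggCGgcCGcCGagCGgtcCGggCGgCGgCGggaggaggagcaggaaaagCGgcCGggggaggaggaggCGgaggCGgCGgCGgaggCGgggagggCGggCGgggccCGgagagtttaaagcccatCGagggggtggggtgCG

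They hold 24 and 22 CpGs in 150 bases each. The RefSeq promoter table matched 7 of the 10 genes with 14 promoters, and the median over all its 300-base promoters was 7 CpGs. One of the 2 Grb10 promoters had 45 CpGs in 300 bases, more than 98.1% of all promoters had, and the other had 9. Plagl1 had 26, Peg3 13 and Dlk1 9, and the promoters of Mest had 8, 17 and 17. The Dlk1 promoter of that table, at chr12:109452573-109452872, lies upstream of the stretch shown and does not overlap it. Those of Igf2 had 2, 7, 14 and 24, and those of Meg3 1 and 13. H19, Peg10 and Cdkn1c were not matched.

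The RNA-seq tables held 26400407 estimated counts in mESCs and 28849497 in NIH3T3 cells. Of 10 pluripotency markers, 10 reached 1 TPM (transcripts scaled to their length and to the library) in mESCs, with a summed level of 6839 TPM, and 2 did in NIH3T3 cells (Klf4 and Tbx3), with 37.4 TPM. Of 10 fibroblast markers, 3 reached 1 TPM in mESCs with a sum of 173 TPM, of which Vim made 162, against 10 and 8258 TPM in NIH3T3 cells. Trophoblast markers reached 1 TPM in 5 of 8 cases in mESCs, summing to 56.1 TPM, and in 0 of 8 in NIH3T3 cells. Krt8 made 39.2 and Krt18 7.76 of the mESC sum, while Cdx2 (0), Elf5 (0.0973) and Hand1 (0.152) stayed below 1 TPM. For primitive endoderm the counts were 3 and 4 of 8, with 51.2 and 77.7 TPM. Of these sums, Lama1 made 41.4 in mESCs, and Pdgfra 49.1 and Dab2 24.2 in NIH3T3 cells. Sox17 and Foxa2 were below 1 TPM in both lines. For early mesoderm and neural markers the counts were 3 and 1 of 6, with 5.42 and 1.76 TPM. The part of these other markers in the levels below was not tested. In bulk RNA, fewer cells of a type and less RNA per cell cannot be told apart.

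Most of the imprinted genes described here had RNA mainly in 1 of the 2 lines. Levels are TPM of the representative transcript, the one with the highest TPM of the gene in that library, and differences are log2((TPM + 1)/(TPM + 1)) of NIH3T3 cells over mESCs. Among the 9 genes with at least 1 TPM in either library, 5 were higher by at least 1 on this scale in NIH3T3 cells (Dlk1, Igf2, Plagl1, Grb10 and Meg3), 3 in mESCs (Mest, Peg10 and Cdkn1c), and Peg3 passed in neither direction. Over all 14691 genes with at least 1 TPM, 20.6% were higher in NIH3T3 cells and 24.9% in mESCs. The median size of the difference, without its sign, was 3.01 over the 9 genes and 0.88 over all genes. The median with sign was 1.11 against −0.14. The genes were chosen with earlier results of these data known, so these medians cannot be read as a trait of imprinted genes.

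**Figure D1:**
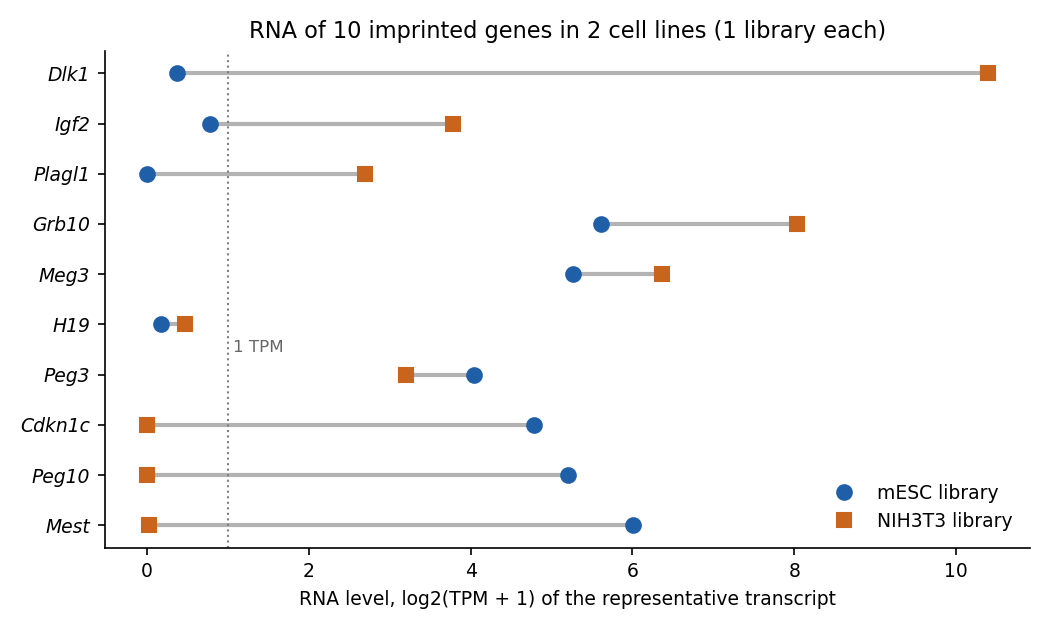
RNA level of each gene as log2(TPM + 1) of its representative transcript in the mESC library (circles) and the NIH3T3 library (squares), joined by a line, with a dotted line at 1 TPM. Dlk1, at 0.296 and 1342 TPM, spans the widest range, and Cdkn1c, Peg10 and Mest lie at or near 0 in NIH3T3 cells.

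Among the growth factors and signalling proteins, Dlk1 (ENSMUSG00000040856, chr12:109452823-109463336, plus strand), a Notch-related membrane protein that holds back fat cell differentiation, had 0.296 TPM in mESCs and 1342 TPM in NIH3T3 cells. The difference was 10.02 on the log2 scale. On 10 and 68837 estimated counts, its share of all counts was 6299-fold higher in NIH3T3 cells (95% interval 3425 to 13137, which like all intervals here covers counting error only). In NIH3T3 cells, transcript Dlk1-205 carried 51.0% of the TPM of the gene and Dlk1-202 25.9%.

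Igf2 (ENSMUSG00000048583, chr7:142650766-142666816, minus strand), a fetal growth factor, was at 0.719 TPM in mESCs and 12.8 TPM in NIH3T3 cells, a difference of 3.01. Its 108 and 1230 estimated counts gave a 10.4-fold higher share in NIH3T3 cells (8.56 to 12.8). In mESCs, Igf2-202 had 0.719 TPM on 39.5 estimated counts and Igf2-201 had 0.556 TPM on 43.5, so that neither clearly led. In NIH3T3 cells Igf2-201 held 55.6% of the TPM of the gene. Igf2os, which overlaps Igf2 on the other strand, had 5 and 40 estimated counts, and Gm49394 on the same strand had 9 and 0. Whether the counts kept the strand is not given in the sources used here.

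Grb10 (ENSMUSG00000020176, chr11:11930508-12038683, minus strand), an adaptor that dampens insulin and IGF receptor signalling, was abundant in both lines at 48.0 TPM in mESCs and 260 TPM in NIH3T3 cells. The difference was 2.41, and 4774 and 28066 estimated counts gave a share ratio of 5.38 (5.22 to 5.55). A single transcript, Grb10-201, made 99.2% of its TPM in mESCs and 98.0% in NIH3T3 cells. These shares come from the division of reads among transcripts, and start sites were not measured.

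Of the nuclear regulators, Plagl1 (ENSMUSG00000019817, chr10:13060504-13131694, plus strand), a zinc finger factor that restrains proliferation, was listed at 0 in mESCs and at 5.49 TPM in NIH3T3 cells. With 0 and 624 estimated counts its share was at least 190-fold higher in NIH3T3 cells, taking 3 counts as the limit for a count of 0. Cdkn1c (ENSMUSG00000037664, chr7:143458339-143461050, minus strand), a cyclin-dependent kinase inhibitor, showed the reverse, with 26.5 TPM in mESCs and 0 in NIH3T3 cells. Its 1645 estimated counts gave a share at least 599-fold higher in mESCs, spread over 4 transcripts with 10.7% to 45.5% of its TPM each.

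Peg3 (ENSMUSG00000002265, chr7:6703892-6730431, minus strand), a zinc finger repressor, passed the size rule in neither direction. It had 15.4 TPM in mESCs and 8.21 TPM in NIH3T3 cells, a difference of −0.83. Its 2491 and 1450 estimated counts gave a share 1.88-fold higher in mESCs (1.76 to 2.00), and Peg3-201 carried 94.7% and 94.9% of its TPM.

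Peg10 (ENSMUSG00000092035, chr6:4747306-4760517, plus strand), a gene derived from a retrotransposon and needed for the placenta, had 35.8 TPM in mESCs and 0 in NIH3T3 cells. Its 7355 estimated counts put the share in mESCs at least 2679-fold higher. Mest (ENSMUSG00000051855, chr6:30723547-30748465, plus strand), a hydrolase-like protein of embryonic mesoderm, had 63.2 TPM in mESCs and 0.0207 TPM in NIH3T3 cells, on 3678 counts and 1 count, a ratio of 4019 (721 to 158792). By the TPM of the representative transcript, Mest was the highest of the 10 genes in mESCs and Dlk1 in NIH3T3 cells. With TPM summed over transcripts, Meg3 (167) stood above Mest (79.7) in mESCs.

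At Mest, transcript Mest-210 held 79.2% of the TPM in mESCs and Mest-211, which starts farther downstream, 19.8%. Copg2, on the other strand, overlaps the end of Mest and was even between the lines at 26.3 and 24.5 TPM.

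Of the noncoding RNAs, Meg3 (ENSMUSG00000021268, chr12:109541001-109571726, plus strand) was abundant in both lines at 37.4 TPM in mESCs and 81.8 TPM in NIH3T3 cells, a difference of 1.11. With TPM summed over its transcripts (167 and 285) the difference was 0.76, below the size of 1. Its 5203 and 9749 estimated counts gave a share 1.71-fold higher in NIH3T3 cells (1.66 to 1.77). H19 (ENSMUSG00000000031, chr7:142575529-142578143, minus strand), the abundant fetal RNA next to Igf2, was below 1 TPM in both lines, at 0.133 and 0.381 TPM on 3 and 34 estimated counts. That ratio, 10.4 (3.26 to 52.8), rests on few counts.

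Genes that share a control region differed in their pattern. In the Dlk1 to Dio3 domain, Dlk1 had 0.296 and 1342 TPM in mESCs and NIH3T3 cells, and Meg3 had 37.4 and 81.8 TPM. The maternally expressed RNAs Rian and Mirg, which lie beyond Meg3, passed the size rule in neither direction, with 110 and 139 TPM for Rian and 21.2 and 30.7 TPM for Mirg. Paternally expressed Rtl1 had 0.0164 and 1.98 TPM, and Dio3, an enzyme that inactivates thyroid hormone, 1.49 and 0 TPM.

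Around Cdkn1c, Phlda2, a regulator of placental growth, had 79.2 TPM in mESCs and 0 in NIH3T3 cells, and Slc22a18 had 5.39 and 0 TPM. Osbpl5 was higher in NIH3T3 cells, with 1.03 and 8.35 TPM. The noncoding Kcnq1ot1 stood at 0.208 and 0.281 TPM, on 345 and 507 estimated counts. In or within 5 kb of Kcnq1ot1, Ctr9 had 10 peaks in mESCs and 19 in NIH3T3 cells. Kcnq1 spans it on the other strand, so the genes cannot be told apart there. Ascl2 had 1.26 and 0 TPM, and Nap1l4, Cd81 and Tssc4 did not differ by the size rule. Next to Peg10, Sgce (2.27 and 0 TPM) and Ppp1r9a (6.43 and 0.294 TPM) were also higher in mESCs, while Asb4 had 0 and 14.5 TPM. Beside Grb10, Ddc had 10.2 and 0.215 TPM.

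A list of 64 imprinted genes that includes these 10 was taken from textbook knowledge of imprinted domains. Whether each gene is imprinted in these lines was not measured. Of the 64, 46 had at least 1 TPM in either library. Of these 46, 17 were higher in NIH3T3 cells, 14 in mESCs and 15 in neither. Without the 10 genes, the counts were 12, 11 and 14 of 37, and the median difference was 0.01. The median size without its sign was 1.54 over these 37 genes, beside 0.88 over all genes with at least 1 TPM. The widest differences among these others were Phlda2 (−6.32), Snrpn (−4.49), Zdbf2 (−3.54), Ddc (−3.21) and Slc22a18 (−2.68) on the mESC side. On the NIH3T3 side they were Dcn (5.99), Asb4 (3.96), Peg12 (2.93), Ndn (2.88) and Osbpl5 (2.21). Of 22 paternally expressed genes of the list with at least 1 TPM, 9 were higher in NIH3T3 cells and 9 in mESCs. Of 21 maternally expressed ones, 6 were higher in NIH3T3 cells and 5 in mESCs. Over all genes with at least 1 TPM, the shares were 20.6% and 24.9%. Grb10 and Gnas, listed as maternally expressed in most or in some tissues, are outside these counts by parental copy. Both were higher in NIH3T3 cells.

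**Figure D2:**
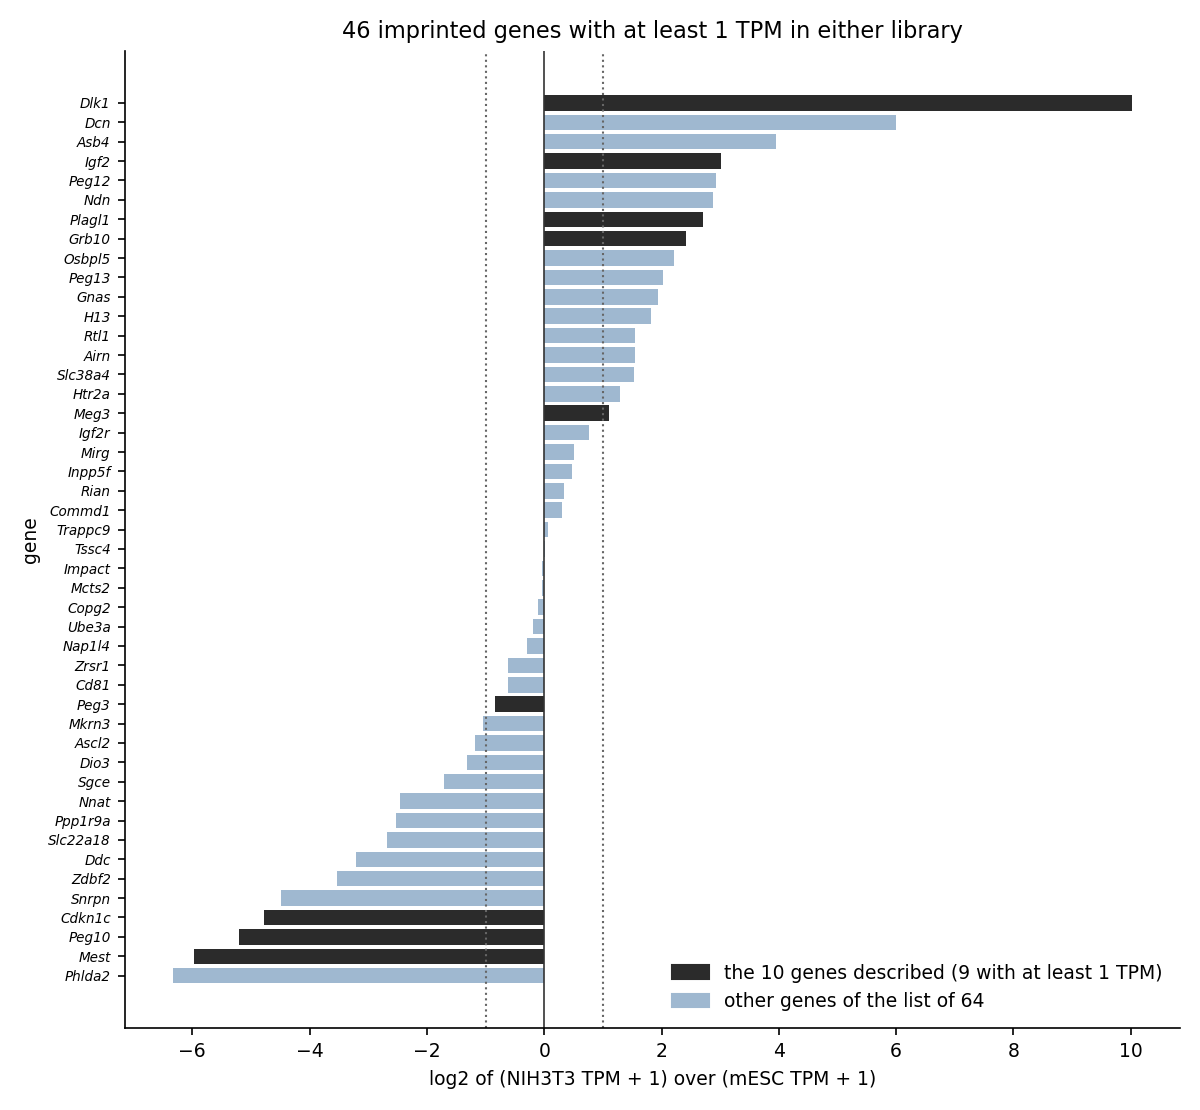
Differences between the lines, as log2 of (NIH3T3 TPM + 1) over (mESC TPM + 1), for the 46 of 64 imprinted genes with at least 1 TPM in either library, the 10 genes described in dark bars (9 pass) and others in light bars, with dotted lines at 1 and −1. Dlk1 (10.02) and Phlda2 (−6.32) stand at the ends, and Rian, Mirg and Copg2 near the middle.

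ChIP-seq peaks were counted when they overlapped a gene body or 5 kb on either side by at least 1 bp. Fold enrichment is the pileup at a summit over the local background. Peaks lay at 5 of the 10 genes, Meg3, Grb10, Mest, Dlk1 and Peg3. In each line they lay only at those of the 10 genes with at least 1 TPM in that line. This did not hold over the wider list. In mESCs, Rtl1 had 13 Ctr9 peaks at 0.0164 TPM, and Kcnq1 had 10 at 0.182 TPM. Igf2, H19, Plagl1, Peg10 and Cdkn1c had no peak in any of the 7 lists. The share of all genes with a peak in any of the 7 lists was not computed, so 5 of 10 is not read against other genes. Shares for each list follow.

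Ctr9 peaks were found at 3 genes in mESCs (Meg3 28, Mest 7 and Grb10 2) and at 4 in NIH3T3 cells (Grb10 21, Meg3 3, Dlk1 1 and Peg3 1). Of 27440 protein-coding and lincRNA genes, 38.6% had a Ctr9 peak by the same rule in mESCs and 22.6% in NIH3T3 cells. Of those with at least 1 TPM in the same line, 73.9% and 45.6% had one, against 3 of 6 and 4 of 6 of the imprinted genes. H3K27ac peaks were found at 4 genes in each line, 7 peaks at Meg3, Mest, Peg3 and Grb10 in mESCs and 14 at Meg3, Dlk1, Peg3 and Grb10 in NIH3T3 cells. The shares over all genes were 38.5% and 49%, and over those with at least 1 TPM 73.5% and 92.5%. With 6 imprinted genes at that level in each line, the Ctr9 and H3K27ac counts are too few to be read against these shares. The H3K27ac lists differ in size, with 19417 peaks in mESCs and 34241 in NIH3T3 cells. Their median fold enrichments differ too, at 3.97 and 6.75, so H3K27ac peak numbers and enrichments are not directly comparable between the lines. Among the other 54 imprinted genes of the wider list, 24 had a Ctr9 peak in mESCs and 16 in NIH3T3 cells, and 24 and 31 an H3K27ac peak.

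NELFA had 1 peak, at Meg3, and Ser5p 1 each at Meg3 and Mest, while Ser2p had none. Over all genes NELFA peaks were at 9.15%, Ser5p peaks at 11.5% and Ser2p peaks at 6.28%. Over genes with at least 1 TPM the shares were 19%, 23.5% and 12.7%. With 6 imprinted genes at that level, counts of 1, 2 and 0 are too few to be read against these shares.

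**Figure D3:**
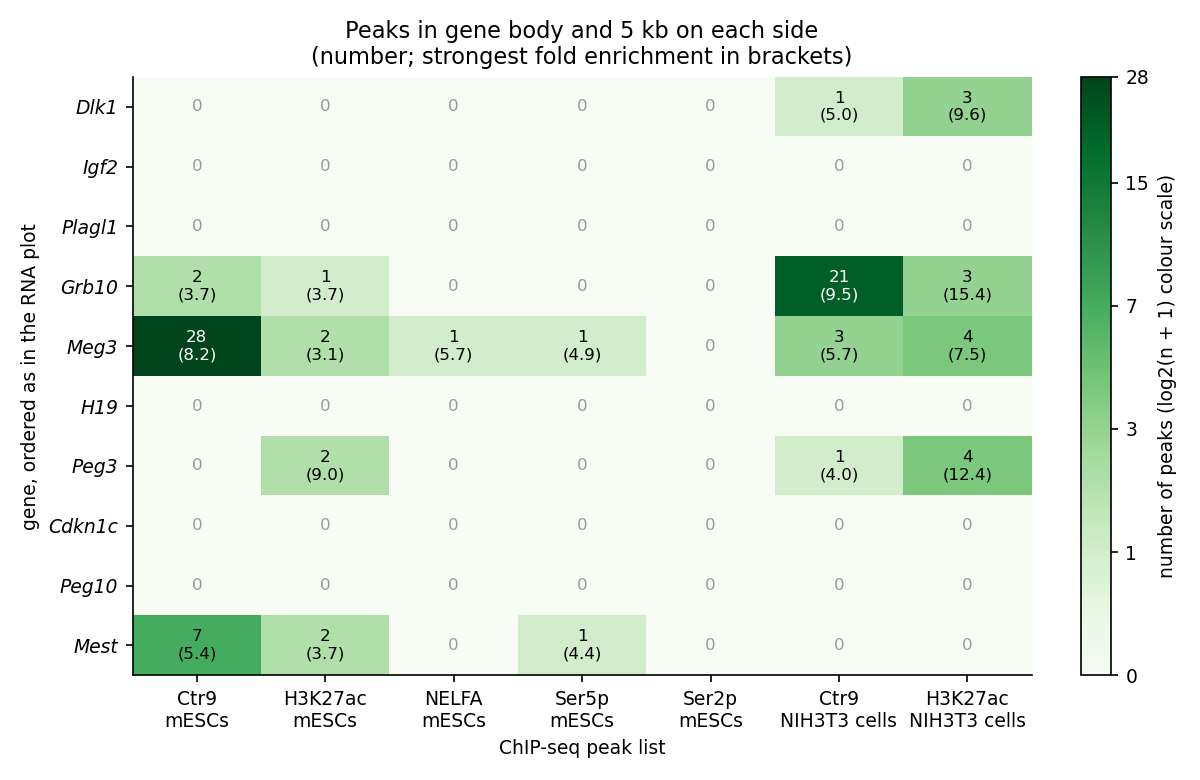
Number of listed peaks in each gene body and 5 kb on each side for the 7 ChIP-seq lists, with the strongest fold enrichment in brackets, and darker cells for more peaks on a log2(n + 1) colour scale. Meg3 in mESCs (28 Ctr9 peaks) and Grb10 in NIH3T3 cells (21) stand out, and 5 genes hold 0 throughout.

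At Meg3 in mESCs, the order of marks from the start ran from NELFA to Ctr9. The NELFA summit lay 78 bp after the start of Meg3-205 (fold enrichment 5.75) and the Ser5p summit at 167 bp (4.91), at either end of the capitals in the sequence above. H3K27ac summits lay at 210 bp (3.06) and 1696 bp (3.08). The first Ctr9 summit lay at 625 bp, with a fold enrichment of 4.55, and its peak overlapped neither the NELFA nor the Ser5p peak.

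Farther on, Ctr9 peaks ran through the gene. Of the 28, 23 had summits in the gene body and 5 past its end, with fold enrichments of 2.53 to 8.17. They covered 15745 bp, or 38.7% of the gene and its flanks. The strongest and widest, at chr12:109547605-109550925, spanned 3321 bp with its summit 7554 bp after the start. Of 11580 genes with at least 1 TPM in mESCs, 156 had at least as many Ctr9 peaks and the median had 3, and 91.8% had a smaller share covered. Summits of 3 of the 28 lay in Gm26906, a lincRNA on the other strand, listed at 0 in both libraries.

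In NIH3T3 cells, with Meg3 at 81.8 TPM, Ctr9 had 3 peaks at the gene (3.98 to 5.66), with summits 836, 1825 and 5727 bp after the start. All 3 overlapped mESC peaks and together covered 1139 bp, or 2.80%. H3K27ac had 4 peaks (4.60 to 7.49), with summits 346 bp before the start and 197, 10764 and 11325 bp after it. The nearest H3K27ac summits of the lines were 13 bp apart. The lists give no read depths, and they differ in size, with 44748 Ctr9 peaks in mESCs and 22016 in NIH3T3 cells.

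At a −log10 q of at least 5, 22 of the 28 Ctr9 peaks of Meg3 in mESCs were left and 2 of the 3 in NIH3T3 cells. Rian and Mirg, downstream of Meg3, had 11 and 6 Ctr9 peaks in mESCs and 7 and 12 in NIH3T3 cells. Rtl1, on the other strand between Meg3 and Rian, had 13 in mESCs and 6 in NIH3T3 cells, at 0.0164 and 1.98 TPM. The windows of Rtl1 and Rian overlap, so some peaks can count for both. At Mirg the larger number was thus in NIH3T3 cells.

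At Grb10 the lines were reversed. In NIH3T3 cells 21 Ctr9 peaks (2.94 to 9.54) covered 10264 bp, 19 with summits in the gene body and 2 past the end. The strongest, at chr11:11927520-11930059, had its summit 1232 bp past the gene end. Counted from the start of Grb10-201, 3 summits lay at 996, 1697 and 2492 bp, and 9 of the others fell between 32795 and 45802 bp, inside the gene. Of 11054 genes with at least 1 TPM in NIH3T3 cells, 116 had at least as many peaks, and 83.6% had a smaller share covered than its 8.69%.

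At a −log10 q of at least 5, 11 of the 21 were left. In mESCs, with Grb10 at 48.0 TPM, Ctr9 had 2 peaks (3.09 and 3.71), both past the gene end, at 2265 and 1553 bp. H3K27ac showed the same contrast at the start. In NIH3T3 cells its summits lay at 176 bp (15.4), 503 bp before the start (14.2) and 1974 bp (5.13), around the CpG-rich stretch shown above. In mESCs the one H3K27ac peak lay 88884 bp into the gene (3.69), and none lay at the start. Grb10 is by far the longest of the 10 genes, at 108 kb, so its window offers more room for peaks.

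At Mest in mESCs, the marks sat at the downstream start. The Ser5p peak (4.36), at chr6:30738026-30738241, overlapped the start of Mest-211, and its summit was 25 bp past that of Mest-204, the nearest annotated start. It was 4574 bp past the start of Mest-210, which had the higher TPM. H3K27ac summits followed at 5255 and 6162 bp from the Mest-210 start (3.70 and 3.44). Ctr9 summits lay at 4838, 6432 and 11712 bp in the gene. No listed peak of any mESC library lay at the start of Mest-210.

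The other 4 Ctr9 peaks of Mest, with the strongest at 5.39, had summits 1268 to 3717 bp past the gene end and all lay inside Copg2, so that Mest and Copg2 cannot be told apart there. In NIH3T3 cells neither Ctr9 nor H3K27ac had a peak at Mest, whereas Copg2 had 0 Ctr9 peaks and 1 H3K27ac peak.

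At Dlk1, no mESC list held a peak. In NIH3T3 cells, H3K27ac summits lay at 167 bp (9.56), 383 bp before (3.86) and 1317 bp after (2.97) the start of Dlk1-205. The single Ctr9 peak, at chr12:109461490-109462126, lay toward the other end, with a fold enrichment of 4.97 and its summit 8214 bp after that start and 1667 bp before the gene end. Of the 75 genes with a TPM at least that of Dlk1 in NIH3T3 cells, 70 had a Ctr9 peak, or 93.3%, and the median of their strongest fold enrichments was 13.2.

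At Peg3, H3K27ac marked the same intronic stretch in both lines. In mESCs its summits lay 1107 bp (8.98) and 2270 bp (5.24) after the start of Peg3-201. In NIH3T3 cells they lay at 1126 bp (12.4), 2226 bp (9.42), 2693 bp (4.96) and 187 bp (4.24). By −log10 q the order of the lines was the other way, with highest values of 83.7 in mESCs and 46.9 in NIH3T3 cells. The strongest summits of the lines were 19 bp apart, and both fell within the run of AAGATGGCG matches from 834 to 3122 bases.

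Ctr9 had no peak at Peg3 in mESCs. In NIH3T3 cells it had 1 peak with its summit at 1313 bp (3.98), overlapping H3K27ac. That peak had a −log10 q of 4.81 and drops out at a limit of 5. Usp29, which starts near Peg3 on the other strand, stood at 0.344 and 0.249 TPM.

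**Figure D4:**
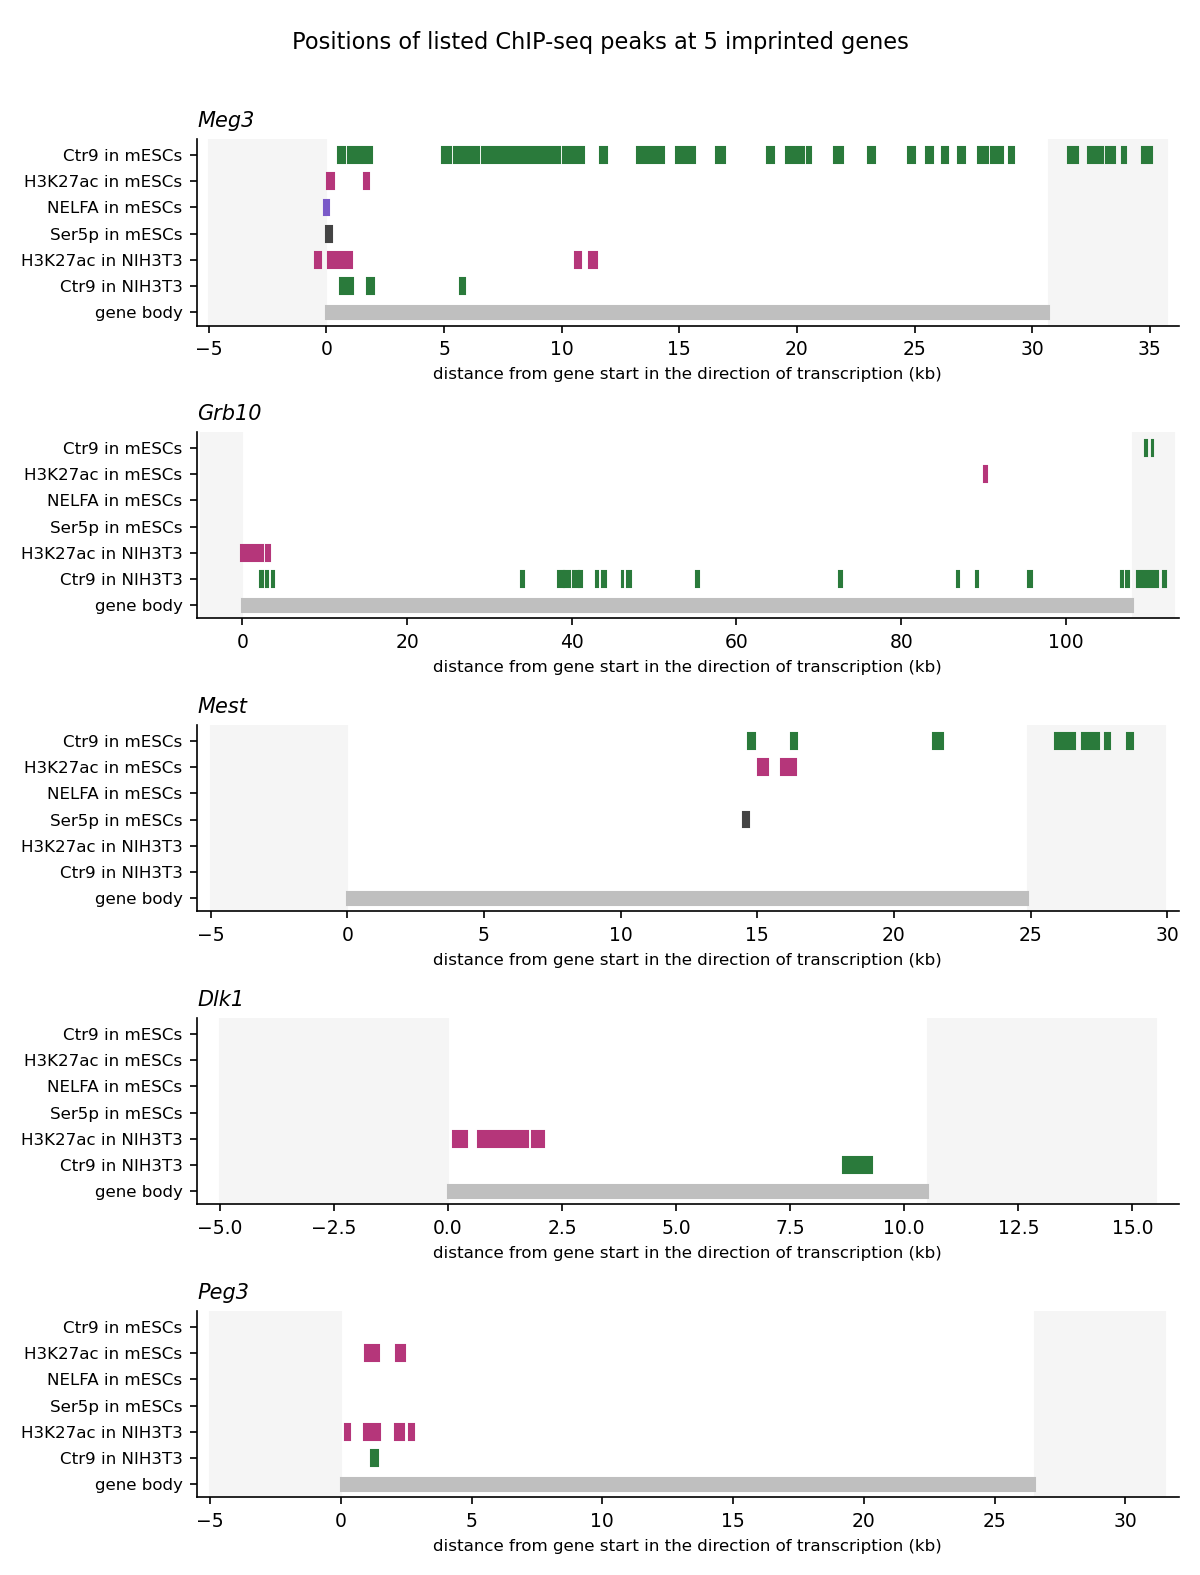
Listed peaks at Meg3, Grb10, Mest, Dlk1 and Peg3, drawn to scale against the distance from the gene start in the direction of transcription (kb), with the gene body in grey and the 5 kb flanks shaded. Ctr9 spreads through Meg3 in mESCs and through Grb10 in NIH3T3 cells, and the H3K27ac peaks of Peg3 line up between the lines.

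Some genes with RNA had no peak in their line. In mESCs these were Peg10 and Cdkn1c, 2 of the 6 genes with at least 1 TPM, against 14.6% of 11580 such genes with no peak in any of the 5 mESC lists. In NIH3T3 cells they were Igf2 and Plagl1, 2 of 6, against 6.75% of 11054 genes with a peak in neither list. With 6 genes in each line, these counts are too few to be read against the shares.

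Peg10 lay in a stretch of 290 kb with no peak of any list, chr6:4601811-4891803. Its nearest mESC peak was an H3K27ac peak 131 kb downstream, and 360 of the 11580 genes were at least as far from one. The nearest mESC Ctr9 peak was 1140 kb away. Cdkn1c lay in a stretch of 204 kb without peaks, with a Ctr9 peak of mESCs (2.69) as its nearest, 39.6 kb upstream.

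Plagl1 lay in a stretch of 182 kb, and its nearest NIH3T3 peak was 51.3 kb upstream. Igf2 lay in a stretch of 351 kb, bounded by an H3K27ac peak of NIH3T3 cells at chr7:142625963-142626670 (8.01), 24.1 kb downstream toward H19. That peak was the only one of the 7 lists with a summit in the 72.6 kb between Igf2 and H19, 48.4 kb from the start of H19. None lay at the 3 CTCF-type stretches shown above. H19 itself was 41.7 kb from its nearest peak, an H3K27ac peak of NIH3T3 cells (15.8) on its downstream side.

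In the 77.7 kb between Dlk1 and Meg3, no list held a Ctr9, NELFA, Ser5p or Ser2p summit. H3K27ac had 2 in mESCs, 11531 bp (4.72) and 11002 bp (2.78) before the start of Meg3, and 1 in NIH3T3 cells, 346 bp before it (6.13). Neither mESC peak had a counterpart in NIH3T3 cells in this interval.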

How the data were processed

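RNA-seq (2 libraries) and ChIP-seq (7 peak lists) were analysed, and 3 input libraries were not used. For each transcript of GENCODE M19 the authors deposited a TPM and an estimated count, made with kallisto 0.46.1. ChIP-seq reads were aligned by the authors to mm10 (Bowtie2 2.3.5.1), regions of the ENCODE blacklist were left out, and MACS2 2.2.6 was run with a limit of 0.01 on the q-value. The deposited lists give a score, the fold enrichment (a ratio) and the −log10 p and −log10 q of each peak. The methods state a target depth for sequencing, and the depth reached by each ChIP-seq library is not in the lists.

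Members and lists were chosen with earlier results of these data known. The named genes are the 10, those of their domains or windows, the markers and the 5 widest differences of the wider list in each direction. Transcripts were represented by the highest TPM per gene and library. Differences used a pseudocount of 1, a minimum of 1 TPM in at least 1 library and a size of 1 on the log2 scale, since 1 library per group compared allows no test. Intervals are 95% exact Clopper-Pearson intervals of estimated counts and cover counting error only, and a count of 0 was given a limit of 3 counts. Gene positions came from GENCODE M21 on GRCm38, and sequences from GRCm38.p6 and RefSeq promoters. The tools were SciPy 1.17.1, NumPy 2.4.6, pandas 2.3.3 and Matplotlib 3.10.9 under Python 3.11.15. Code was tested on simulated data (5 of 5 checks passed, 500 simulated intervals).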

Additional observations from a re-analysis of the deposited data

How the results depend on the processing

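No paired analysis was possible because each group compared had 1 library, so that groups share fewer than 2 replicate numbers. Of 98 recomputed values under other settings, 90 kept their direction and their side of the size rule or stayed within 1.5 times the reported count, and none reversed. The median difference of the imprinted genes, 1.11, was 0.76 with TPM summed over transcripts, 1.13 with a pseudocount of 0.1, 1.20 with the NIH3T3 TPM rescaled to a median ratio of 1, 0.87 with the estimated counts as CPM and 0.70 without a filter on low values. Summing TPM and using CPM took Meg3 below the size of 1 (0.76 and 0.77), and a pseudocount of 0.1 took H19 past it (1.04). The cause was not tested. With 1 library per group, differences between libraries and between lines cannot be told apart, and peak numbers depend on ChIP-seq depths that the lists do not give. Estimated counts of transcripts that share exons, as at Mest, Dlk1 and Igf2, depend on how kallisto divides the reads.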
